A study of Mus musculus with 3 samples.

Results

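Epithelial cells of the mouse large intestine were compared with epithelial cells of the lower small intestine by RNA sequencing, gene by gene over all gene names. Each region was represented by 1 library, so no difference below has a replicate check, and the comparison describes these libraries. A gene was taken as measured when it reached 1 FPKM (read fragments relative to transcript length and to library size, the unit inferred for these values) in either library, and names of short RNA classes with the prefixes Mir, Snor or Rnu were set aside. This left 12287 measured genes of 24346 names. The labels give the organism, the region and the cell type of both libraries, and the source names of both begin with SPFm, which the labels do not spell out. Genotype, treatment, age and the number of animals behind a library are not stated for either, and cells were released with EDTA without a sort. An upper small intestinal library, the only other one, is cited beside some genes and alone carries a strain entry, naming a mouse model of colorectal cancer (MC38).

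The epithelium of the small intestine digests and absorbs nutrients across a tall brush border, and its last part reclaims bile acids and cobalamin. Paneth cells at the base of its crypts secrete antimicrobial peptides. The epithelium of the large intestine, which has no villi, recovers salt and water, burns fatty acids made by bacteria and separates a dense microbial population from the tissue with a thick mucus layer.

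A difference is given as log2(FPKM + 1) in the large minus the lower small intestine, and a gene is called higher or lower here when the FPKM + 1 differed 2-fold or more. Values are in FPKM, the large intestine first, and ratios are of FPKM. Brackets hold 95% Clopper-Pearson intervals on a ratio, from reads implied by the spacing of low values. They cover counting error only, and not the spread between animals or preparations. In a 2 kb transcript, 1 FPKM stood for about 16.9 reads in the large and 22 in the lower library. A value of 0 is written as listed at 0, because it can be a failed estimate. Rpl26, a ribosomal protein gene that every cell uses, was listed at 0 in the large intestine and was at 6.14 in the lower library. Epithelial markers were abundant in both libraries, with a summed level of 9779 FPKM in the large and 9380 FPKM in the lower library over 9 genes. Of these markers 8 were under the 2-fold rule and Vil1 was lower in the large intestine. All 13 measured of 14 T cell markers were lower in the large intestine, with sums of 21.8 and 628 FPKM, as were all 5 measured B and plasma cell markers, with sums of 0.143 and 31.6 FPKM. Their part in the results below was not tested.

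Of the measured genes 1172 were higher in the large intestine (9.54%) and 1263 were lower (10.3%), so that 19.8% were called in either direction. Higher genes were 48.1% of those called, and the median difference over all genes was 0. When both libraries were rescaled to the same summed FPKM, the median of all genes moved by 0.25 and 62.6% of the called genes were higher. The extremes were on a different scale from the bulk, since the quartiles of the difference were -0.41 and 0.40 while 35 genes were higher by 5 log2 units or more and 60 were lower by that much. Genes called lower held 31.6% of the summed FPKM of the lower small intestine and 4.08% of that of the large intestine. Genes called higher held 17.3% of the sum in the large intestine and 3.11% in the lower small intestine. By these shares, which leave short RNA names out, more of the small intestinal sum lay in genes called in its favour. The 10 most abundant names of that library, whatever their call and with short RNA names included, held 17.3% of its summed FPKM. Those of the large intestine held 7.79%.

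**Figure D1:**
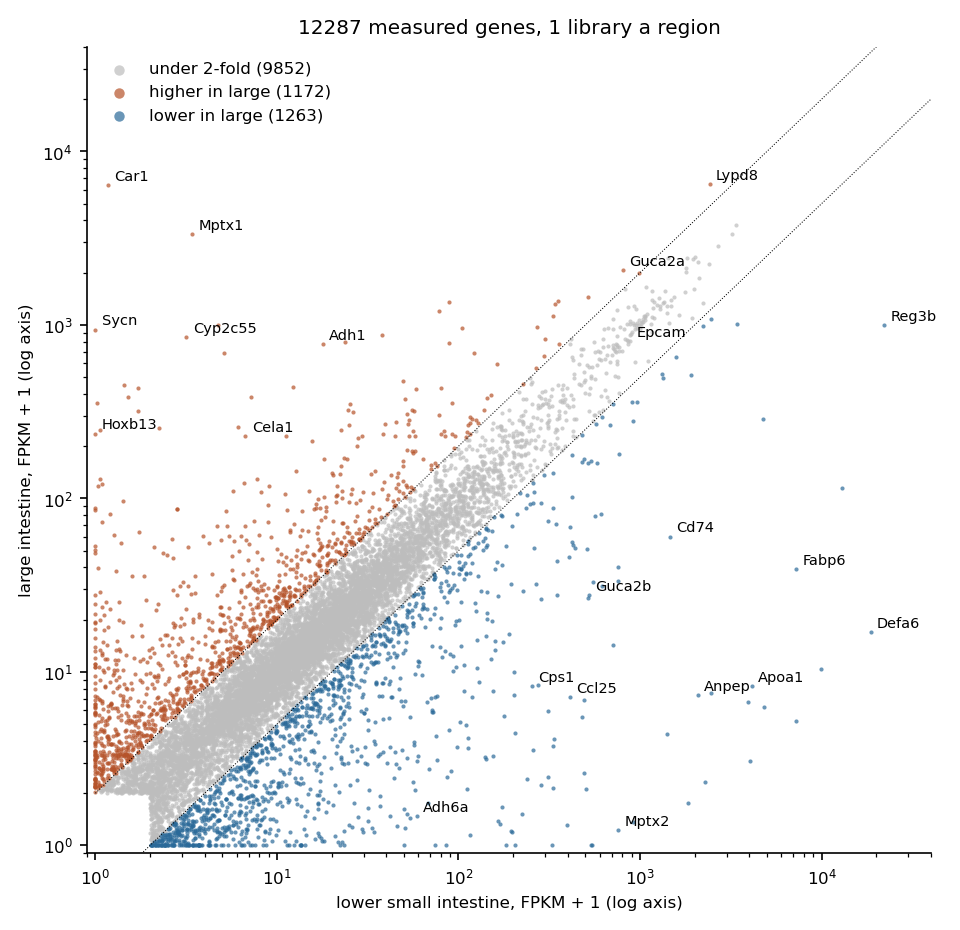
FPKM + 1 of each measured gene in the large intestine against the lower small intestine, both on log axes, with 1 point a gene, dotted lines at a 2-fold ratio and 1 library a region. The 1172 genes higher in the large intestine are in orange, the 1263 lower ones in blue, and Car1 at the upper left and Defa6 at the lower right mark the extremes.

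The extremes named both epithelia. Car1, a cytosolic carbonic anhydrase (chromosome 3, 14766216 to 14808368, minus strand, mm10, ENSMUSG00000027556.15), was at 6414 and 0.172. Mptx1, a mucosal pentraxin (chromosome 1, 174330518 to 174332873, plus strand), was at 3341 and 2.40. Cyp2c55, a cytochrome P450 (chromosome 19, 39007019 to 39042693, plus strand), was at 852 and 2.17, a ratio of 392 (296 to 532). All 3 were abundant in the large intestine and under 3 FPKM in the lower small intestine. Thbs4, a secreted thrombospondin, was at 117 and 0.028, and Hao2, a peroxisomal hydroxyacid oxidase, at 254 and 1.24. Anxa1, a phospholipid-binding annexin, was at 95.1 and 0.425. In the other direction Defa6, an alpha-defensin, was at 15.9 and 18619, and Fabp6, the ileal bile acid-binding protein (chromosome 11, 43596049 to 43601540, minus strand), at 38.3 and 7245. Lgals2, a galectin, was at 6.53 and 2468, and its lower to large ratio was 378 (269 to 549). Rescaling to equal sums or equal upper quartiles moved the median of all genes by 0.25 and 0.07, so genes this far apart could not change direction.

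Genes at 10 FPKM or more on one side and listed at 0 on the other numbered 19 in the large and 17 in the lower small intestine. Those of the large intestine included the Hox genes Hoxa7, Hoxa9, Hoxa10, Hoxa13, Hoxb13 and Hoxd13 and the long noncoding RNA Hottip of the Hoxa cluster. The ion transport genes Atp12a, Best2 and Fxyd4, the P450 genes Cyp2d13 and Cyp2f2, the lactoperoxidase gene Lpo and the hormone gene Insl5 were among them too. Those of the lower small intestine included Apoc3 of chylomicrons, the hormone gene Gip, the P450 gene Cyp2b10, the alpha-defensins Defa3, Defa17 and Defa26, and Jchain, the joining chain of secreted antibodies. Jchain is known as a product of plasma cells, and the part of such cells in its value was not tested.

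An unusual member of the first set was Sycn, which encodes syncollin, a protein of zymogen granule membranes best known from the pancreas. It was at 939.7 in the large intestine, listed at 0 in the lower and at 2.52 in the upper small intestine (chromosome 7, 28540885 to 28542209, plus strand). Cela1, a chymotrypsin-like elastase, was at 227 and 5.71, a ratio of 39.8 (26.3 to 63.2). The other 9 of 10 pancreatic acinar markers, among them digestive lipase, amylase and trypsinogen genes, were listed at 0 in the large intestine and in the lower small intestine. Both transcripts were thus found in the large intestine without the other acinar products.

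Upstream sequence was a feature that the choice of genes did not use. It was read as 250 bases before to 50 bases after the outermost start of each gene (RefSeq, GRCm38.p6, the assembly of mm10). Such windows were at hand for 843 genes called higher, 924 called lower and 7584 measured genes called neither. The CpG content, as the ratio of observed to expected CpG, had a median of 0.588 in genes called higher, 0.484 in genes called lower and 0.792 in genes called neither. It fell further with the size of the difference, to 0.363 in 104 genes higher and 0.237 in 139 genes lower by 3 log2 units or more, beside 0.389 over all 27025 genes of the table. Regional genes in both directions were thus poorer in CpG than genes that the epithelia shared. The letters TATAAAA, searched on both strands as were all motifs here, were in 8.65% and 11.5% of these windows in the same order, in 2.08% of windows of genes called neither and in 5.79% of all windows. The letters CAAAGTCCA, a core sequence of sites for the nuclear receptors HNF4A and HNF4G, were in 7 of the 139 windows of strongly lower genes (5.04%) and in 1 of the 104 of strongly higher genes (0.962%). They were in 0.277% of windows of genes called neither and in 0.474% of all windows. Over all called genes they were in 1.07% of higher and 1.62% of lower windows, so both directions were above genes called neither and much closer together. The letters AGATAAG of GATA factors were in 5.04% of the strongly lower and 3.85% of the strongly higher group, and TTTATGG of CDX factors in 6.47% and 4.81%, beside 3.06% and 2.78% of all windows. The letters CTCGTAAA, taken for HOX13 factors, were in 1 strongly lower and 0 strongly higher windows, beside 0.148% of all windows. A match is a description of the letters and was not tested as a binding site.

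The 7 holders of CAAAGTCCA were Treh, Alpi, Slc3a1, Btnl2, Cyp3a11, Ptpn22 and Pdzk1, of which Pdzk1 carried it after its start. They include a disaccharidase, an alkaline phosphatase, an amino acid carrier subunit, a butyrophilin-like protein and a microvillar scaffold. The 120 bases before the start of 4 of them are shown to place the letters, which are in capitals. Below them stands Cyp2c55, a strongly higher gene without these letters, with TATAAAA in capitals. In Treh the letters lie on the opposite strand. All are written 5′ to 3′ on the strand of the gene.
Treh (chr9:44673113-44673232, plus strand): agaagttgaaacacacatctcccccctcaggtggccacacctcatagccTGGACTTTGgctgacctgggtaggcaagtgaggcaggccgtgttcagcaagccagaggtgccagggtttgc
Alpi (chr1:87101607-87101726, minus strand): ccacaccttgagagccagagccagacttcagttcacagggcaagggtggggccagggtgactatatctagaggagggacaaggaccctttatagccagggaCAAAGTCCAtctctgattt
Slc3a1 (chr17:85028227-85028346, plus strand): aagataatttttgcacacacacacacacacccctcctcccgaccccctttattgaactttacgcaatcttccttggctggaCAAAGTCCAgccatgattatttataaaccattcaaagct
Btnl2 (chr17:34354702-34354821, plus strand): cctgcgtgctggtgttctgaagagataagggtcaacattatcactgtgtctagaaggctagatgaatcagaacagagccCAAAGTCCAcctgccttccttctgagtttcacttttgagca
Cyp2c55 (chr19:39006899-39007018, plus strand): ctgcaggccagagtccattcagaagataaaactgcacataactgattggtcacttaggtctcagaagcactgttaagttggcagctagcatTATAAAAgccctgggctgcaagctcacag

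The letters end 62 bases before the start in Treh, 10 in Alpi, 30 in Slc3a1 and 32 in Btnl2, and TATAAAA ends 22 bases before the start of Cyp2c55. Treh, the trehalase gene, was at 0.439 in the large and 53.1 in the lower small intestine. Alpi, an intestinal alkaline phosphatase, was at 6.76 and 153. Slc3a1, which anchors the carrier of cystine and basic amino acids, was at 9.67 and 95.8, and Btnl2, a butyrophilin-like gene, at 1.94 and 44.1. All 4 were lower in the large intestine by 9.91 to 121 times. Hnf4a itself was under the 2-fold rule at 180.03 and 231, while its relative Hnf4g was called lower, at 16.9 and 78.1, a lower to large ratio of 4.63 (4.11 to 5.24).

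Gene lists drawn up by function were next compared as groups (the plot of list members by difference). Their counts stand beside 9.54% higher and 10.3% lower over all measured genes, and their medians beside a median of 0. In a bulk library, fewer cells of a type and less RNA per cell cannot be told apart.

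**Figure D2:**
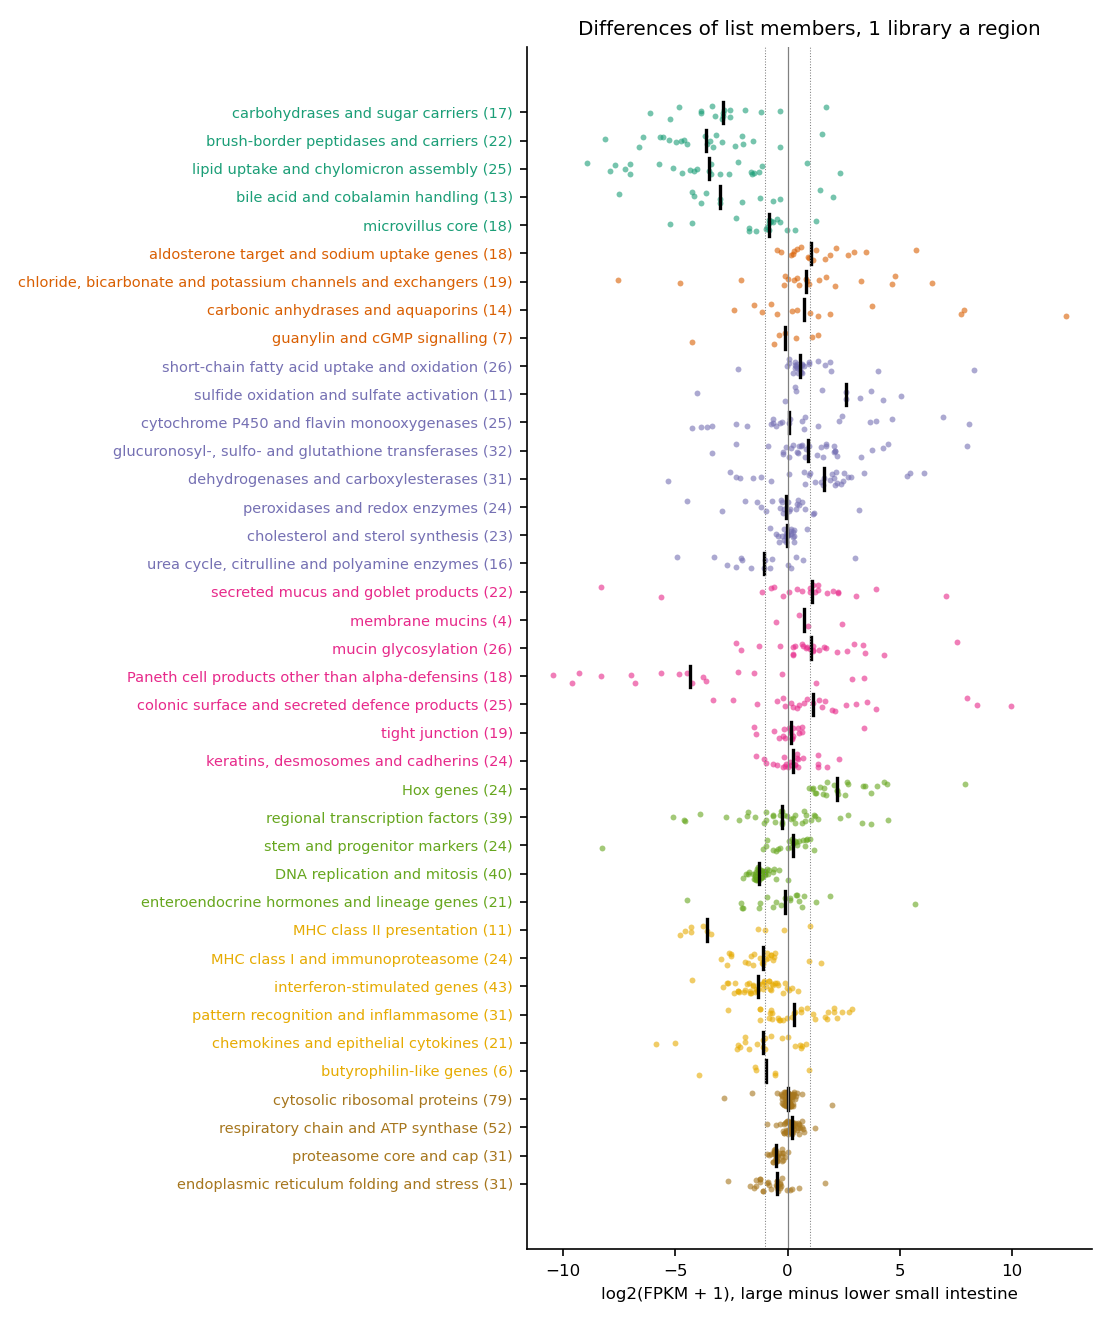
Difference of log2(FPKM + 1), large minus lower small intestine, for each measured member of 39 functional gene lists, with 1 point a gene, a black bar at the median, dotted lines at the 2-fold rule and the number of measured members in brackets. Nutrient uptake, Paneth cell and MHC class II lists lie to the left, Hox, sulfide oxidation and dehydrogenase lists to the right, and ribosomal, sterol synthesis and proteasome lists close to 0.

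Nutrient uptake was lower in the large intestine along the whole chain from surface enzymes to export. Of 17 carbohydrases and sugar carriers 15 were lower and 1 was higher (median -2.89). Mgam, the maltase-glucoamylase gene, was at 79.9 and 611, and Slc5a1, the sodium-glucose cotransporter SGLT1, at 67.6 and 409. Slc2a2, the glucose exit carrier GLUT2, was at 0.092 and 15.1. The members were thus lower to unequal degrees, and Slc2a2 was almost at 0 in the large intestine whereas Mgam and Slc5a1 were not. Khk, which starts fructose breakdown, was at 13.1 and 102. The exception was Pck1, the gluconeogenic phosphoenolpyruvate carboxykinase, higher at 163 and 48.8, with 151 in the upper small intestine.

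Of 22 brush-border peptidases and their carriers 20 were lower and 1 was higher (median -3.62). Naaladl1, an ileal peptidase, was at 32.5 and 755, Ggt1, a gamma-glutamyltransferase, at 3.47 and 205 and Mme, neprilysin, at 0.752 and 66.7. Slc15a1, the peptide carrier PEPT1, was at 38.4 and 159. Meprin subunits parted here, since Mep1b was lower at 50.2 and 507 while Mep1a was at 132 and 167, within the 2-fold rule. Slc36a1, a proton-coupled carrier of small amino acids, was the 1 higher member at 56 and 18.5.

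Of 25 genes for lipid uptake and chylomicron assembly 23 were lower and 1 was higher (median -3.51). Npc1l1, which takes up cholesterol, was at 0.325 and 168, a lower to large ratio of 517 (296 to 1001). Mttp, which loads lipid onto apolipoprotein B, was at 1.22 and 283, and Apob itself at 14 and 158. Npc1l1 and Mttp were thus close to 1 FPKM or below it in the large intestine, and Apob was not. Plin2, a coat protein of lipid droplets, was at 55.5 and 29.9 and under the rule. Scarb1, a lipoprotein receptor, was higher at 6.96 and 0.591.

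Bile acid and cobalamin handling was lower in 9 of 13 genes and higher in 2 (median -2.99). Slc10a2, the uptake carrier ASBT, was at 24.2 and 102, a lower to large ratio of 4.20 (3.90 to 4.52), and at 0.618 in the upper small intestine. The exit carrier subunits Slc51a and Slc51b were at 26.8 and 346 and at 53 and 428. Fabp6, between uptake and exit, differed far more, by 189 (162 to 223). The hormone Fgf15, which bile acids induce through FXR, was at 0.068 and 7.52, whereas Nr1h4, the gene of FXR, was under the rule at 39.9 and 63.1. Abcc3, an exporter of conjugates on the basolateral side, was higher at 104 and 24.6. The steps of the route thus differed by very unequal amounts and, for Abcc3, in the other direction.

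Of 18 microvillus genes 6 were lower and 1 was higher (median -0.82), and 16 lay below 0. Vil1, villin, was at 278 and 913, and the scaffold Slc9a3r1 (NHERF1) at 164 and 536. Pdzk1, a scaffold for brush-border carriers, was at 3.63 and 87.7. Slc9a3r2 (NHERF2) was higher at 4.55 and 1.31. Relatives of 1 scaffold family were thus found on both sides.

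Sodium recovery went the other way. Of 18 aldosterone target and sodium uptake genes 9 were higher and none was lower (median 1.04). Scnn1a, the alpha subunit of the epithelial sodium channel ENaC, was at 53.9 and 6.03, a ratio of 8.94 (6.32 to 13), and the beta subunit Scnn1b at 3.51 and listed at 0. Nr3c2, the mineralocorticoid receptor, was at 42.9 and 11, and Hsd11b2, which keeps cortisol and corticosterone off that receptor, at 143 and 11.7. Receptor, guard enzyme and channel were therefore all higher. Fxyd4, a regulator of the sodium pump, was at 51.9 and listed at 0, Prss8, a protease that activates ENaC, at 29 and 11.7, and the exchanger Slc9a3 (NHE3) at 58.7 and 8.32.

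Among 19 chloride, bicarbonate and potassium genes 7 were higher and 3 lower (median 0.81). Slc26a3, the chloride-bicarbonate exchanger DRA, was at 472 and 48.7, while its relative Slc26a6 (PAT1) was at 1.08 and 56.8. Ano1, a calcium-activated chloride channel, was at 51.5 and 1.11, and the proton-potassium pump Atp12a was at 86.6 and listed at 0. Clca4b and Clca4a, regulators of calcium-activated chloride current, were lower at 1.6 and 492 and at 40.4 and 172. The channel gene Cftr, which drives fluid secretion, was under the rule at 45.4 and 32.1. Cftr was thus at like levels in both libraries, whereas exchangers and calcium-activated channels differed.

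Carbonic anhydrases and aquaporins divided by member, with 7 of 14 higher and 3 lower (median 0.71). Car2 and Car4, a cytosolic and a surface enzyme, were at 995 and 3.72 and at 598 and 162. The water channel Aqp8 was at 247 and 0.066 and Aqp4 at 107 and 7.14. Aqp3 and Aqp7, which also carry glycerol, were lower at 0.21 and 5.4 and at 0.424 and 3.05. Of 7 genes of guanylin signalling 2 were higher and 1 lower (median -0.12, or 0.14 with equal sums), and the receptor Gucy2c was under the rule at 117 and 89.6. Its ligands went apart: Guca2a, guanylin, was at 2063 and 806, and Guca2b, uroguanylin, at 26.7 and 522.

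Genes for the use of short-chain fatty acids were moderately higher. Of 26 measured, 6 were higher and 1 lower, and 24 lay above 0 (median 0.57). Slc16a1 and Slc5a8, the carriers MCT1 and SMCT1 of butyrate, were at 94.9 and 24 and at 104 and 39.7. Acsm3, an acyl-CoA synthetase of medium-chain acids, was at 83.4 and 4.22. Slc16a3, the lactate exporter MCT4, was lower at 0.851 and 7.64.

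Of 11 genes of sulfide oxidation and sulfate activation 7 were higher and 1 lower (median 2.6). Bacteria of the large bowel release hydrogen sulfide, which these enzymes turn to thiosulfate and sulfate. Selenbp1, a methanethiol oxidase (chromosome 3, 94933056 to 94944758, plus strand), was at 802 and 22.8, a ratio of 35.1 (28.5 to 43.8). Ethe1, the persulfide dioxygenase, was at 321 and 23.6, and Tst, the sulfurtransferase rhodanese, at 168 and 17.2. Cbs, which also makes sulfide, was at 34.8 and 0.859. Suox, the sulfite oxidase that ends the route, was lower at 6.16 and 118, a lower to large ratio of 19.1 (16 to 22.9). It was at 4.28 in the upper small intestine, so the lower library alone was high.

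Enzymes of detoxification were more often higher than lower, and P450 genes were divided. Of 31 dehydrogenases and carboxylesterases 19 were higher and 6 lower (median 1.63), and of 32 glucuronosyl-, sulfo- and glutathione transferases 15 were higher and 2 lower (median 0.9). Of 25 cytochrome P450 and flavin monooxygenase genes 8 were higher and 6 lower (median 0.07). Summed levels in the large, lower and upper library were 3102.2, 1515.3 and 3625.4 FPKM for dehydrogenases and carboxylesterases. They were 3687.5, 1928.5 and 3671.5 FPKM for the transferases and 1600.9, 889.8 and 2795.5 FPKM for the P450 and monooxygenase list. By sum the lower library was thus the lowest, and the upper small intestine was near or above the large intestine. Cyp2d34 was at 128 and 0.059, and Cyp2c65 at 102 and 20.1, while Cyp3a11 and Cyp3a25 were lower at 0.059 and 11.8 and at 0.32 and 24. P450 genes of the 2c and 2d groups thus stood opposite to those of the 3a group. Sult1c2, a sulfotransferase, was at 46.1 and 1.47, and Ugt1a6a, a glucuronosyltransferase for phenols, at 57 and 1.63. Gstm1, a glutathione transferase, was at 212 and 14.5, a ratio of 14.6 (11.8 to 18.2). Ces1g, a carboxylesterase, was at 80.2 and 0.202, and Hsd17b2, which inactivates sex steroids, at 140 and 19.1.

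Redox enzymes as a list were level, with 3 of 24 higher and 5 lower (median -0.06, or 0.22 with equal sums). Prdx6, a peroxiredoxin that also acts on phospholipids, was at 954 and 104, a ratio of 9.22 (8.51 to 10). Duox2, the dual oxidase that makes hydrogen peroxide at the surface, was lower at 11.3 and 92.1, as was Gpx2, the gut glutathione peroxidase, at 265 and 682. None of 23 sterol synthesis genes was called (median -0.01, or 0.26 with equal sums). Of 16 urea cycle, citrulline and polyamine enzymes 9 were lower and 1 was higher (median -1.03). Cps1 and Otc, the mitochondrial enzymes that make citrulline, were at 7.31 and 254 and at 12.1 and 82.9. Glul, glutamine synthetase, was the higher member at 223 and 27.1. Genes of citrulline synthesis and of glutamine synthesis were thus on opposite sides.

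Genes of mucus and its sugars were called higher more often than lower. Of 22 secreted goblet cell products 12 were higher and 3 lower (median 1.07). Klk1, a kallikrein protease, was at 1196 and 77.5, Sval1, a seminal vesicle antigen-like protein, at 686 and 4.11, and Retnlb, the bactericidal resistin-like beta, at 45.4 and 4.65. Itln1, a lectin for microbial sugars, was lower at 3.4 and 1407, and the ribonuclease gene Ang4 at 13.2 and 705. Zg16, a lectin that binds Gram-positive bacteria, was nearly equal at 3331 and 3193, and Fcgbp, which cross-links mucus, was at 421 and 641. Ang4 and Itln1 are also known as products of Paneth cells.

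Of 26 mucin glycosylation genes 13 were higher and 3 lower (median 1.05). St6galnac6, a sialyltransferase (chromosome 2, 32599709 to 32620806, plus strand), was at 317 and 0.725, a ratio of 438 (149 to 2127). B3galt5, B3gnt7 and B3gnt6, which extend the chains, were at 109.9 and 4.71, 246 and 21.6, and 13.4 and 1.32. Fut2, which adds terminal fucose, was at 60.4 and 6.98, with 0.502 in the upper small intestine. Sialic acid enzymes were split, since St3gal6 was higher at 90.9 and 7.95 while St3gal4 was lower at 179 and 762. Gcnt4, a branching enzyme, was lower at 3.12 and 19.2.

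Paneth cell products other than alpha-defensins were lower in 14 of 18 cases and higher in 3 (median -4.36). Mmp7, the protease that activates alpha-defensins, was at 1.47 and 309. Reg4, Nupr1 and Kit, the 3 higher members, were at 265 and 24, 426 and 57.5, and 17.5 and 6.74. Reg4 and Kit also mark the deep crypt secretory cells of the colon, and Nupr1 is a stress-response factor. Of 25 colonic surface and defence products 13 were higher and 3 lower (median 1.11). Lypd8, which keeps flagellated bacteria at a distance, was at 6486 and 2417, S100a6, a calcium-binding protein, at 1354 and 88, and Pla2g10, a secreted phospholipase, at 57 and 3.94. Lypd8 was thus also among the most abundant genes of the lower small intestine.

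Of 19 tight junction genes 1 was higher and 2 were lower (median 0.16), where Cldn8, a claudin that seals against sodium, was at 17.6 and 0.782, Cldn15, a claudin that forms cation pores, at 92.4 and 246 and Cldn4 at 17.2 and 50.2. Of 24 keratin, desmosome and cadherin genes 5 were higher and 2 lower (median 0.23). Krt20, the keratin of mature surface cells, was lower at 361 and 968, and the cornified envelope genes Sprr2a3 and Sprr1a were higher at 104 and 20.4 and at 19.5 and 5.05.

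Hox genes are transcription factors that give body segments their identity along the head to tail axis. Over 39 names their summed levels were 468 FPKM in the large and 25.5 FPKM in the lower library. Of 24 measured 23 were higher in the large intestine and none was lower (median 2.2). The exception was Hoxa2, under the rule at 1.67 and 0.375. The other names were under 1 FPKM in both libraries. A measured gene listed at 0 in the lower library is called higher by the rule itself, and one close to 0 nearly so. Hoxb3 to Hoxb9 reached 1 FPKM in both libraries, so their calls were not fixed in this way. Members 3 to 9 of the Hoxb cluster were already present in the lower small intestine, such as Hoxb9 at 35.2 and 6.65 and Hoxb6 at 31.5 and 6.11. Hoxb13 was at 236 and listed at 0. In the Hoxa cluster Hoxa6 to Hoxa13 were all listed at 0 in the lower small intestine, with Hoxa10 at 18.5 and Hoxa13 at 14.7 in the large intestine. Hoxa5, at 9.73 and 0.05, was likewise close to 0 in the lower library. Hoxa11os, an antisense RNA, was at 84.3 and listed at 0 while Hoxa11 on the other strand was at 5.56 and listed at 0. As the strand setting of the counting is not given in the sources used here, reads of this pair may not be told apart.

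**Figure D3:**
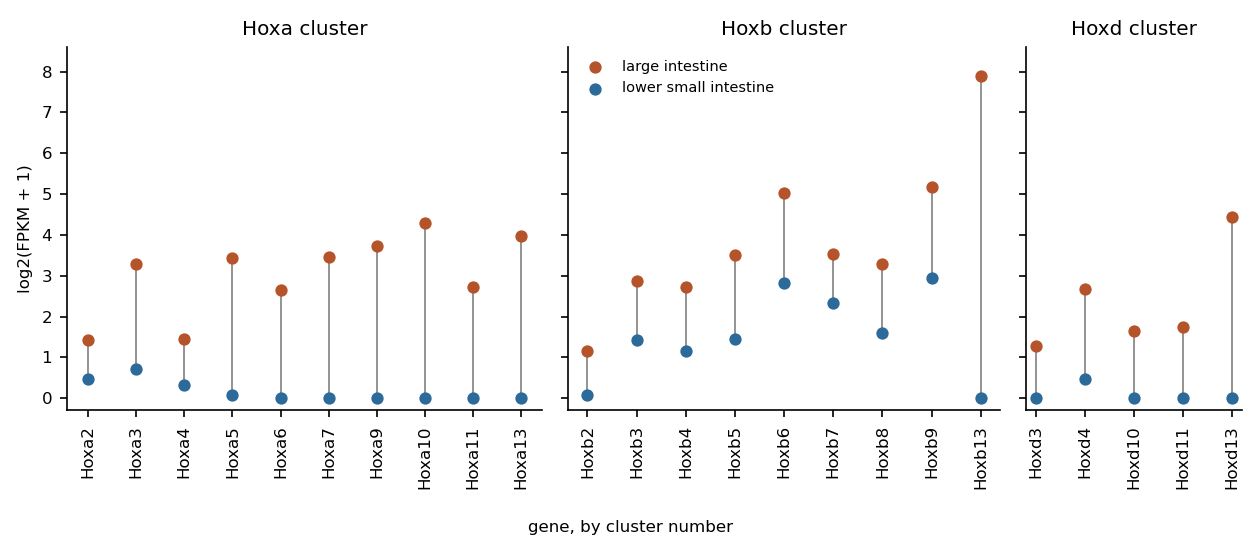
log2(FPKM + 1) of each measured Hox gene in the large intestine (orange) and the lower small intestine (blue), 1 library a region, ordered by number within the Hoxa, Hoxb and Hoxd clusters. Every orange point lies above its blue point, and blue points are at 0 from Hoxa6 on and for Hoxb13, while Hoxb3 to Hoxb9 are above 0 in both.

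Of 39 regional transcription factors 9 were higher and 10 lower (median -0.25, or 0.02 with equal sums). Foxd2, a forkhead factor, was at 24.1 and 0.139. Pparg, a nuclear receptor for fatty acids, was at 54.4 and 3.21, and Tfcp2l1, a further transcription factor, at 73.3 and 6.45. On the other side Gata5 was at 0.247 and 28.4 and Tbx3 at 4.13 and 33.8, while Gata6 was under the rule at 19.5 and 21.8. The caudal factors of all intestinal epithelium were shared, with Cdx2 at 82.5 and 100.2 and Cdx1 at 170.3 and 100.3. Regional factors thus lay around a common core of Cdx2, Hnf4a and Gata6.

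Of 24 stem and progenitor markers 1 was higher and 2 were lower (median 0.22), and with equal sums 5 were higher and 1 was lower. Most were thus under the rule, but their differences ran from -8.25, that of Olfm4, to 1.17. Replication and mitosis genes were lower in 30 of 40 cases and higher in none (median -1.26), and 39 of 40 lay below 0. Top2a, a topoisomerase of dividing cells, was at 20.5 and 72.4, Mcm6, a subunit of the replicative helicase, at 16.2 and 46 and Ube2c, of the anaphase-promoting complex, at 30.6 and 86.7. Each differed by about the same moderate amount. With equal sums 20 of the 40 were lower (median -1). Plk1, a mitotic kinase, was the 1 member above 0, at 31.9 and 31.2.

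Hormone genes of enteroendocrine cells divided, with 3 of 21 higher and 6 lower (median -0.11, or 0.19 with equal sums). Pyy, which slows the bowel and curbs appetite, was at 108 and 28.9, and Tph1, which makes serotonin, at 7.16 and 2.44. Sct, secretin, was lower at 21.9 and 54.2 and Ghrl, ghrelin, at 0.589 and 5.28. The 3 higher members were thus Pyy, Tph1 and Insl5. None of 5 measured tuft cell markers was called, yet 4 of them lay below 0 (median -0.86). With a pseudocount of 0.1, which shrinks low genes less, 3 of the 5 were lower. The M cell markers had 3 of 6 lower.

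Among the lists of epithelial immunity, MHC class II presentation had the lowest median. Of 11 genes of MHC class II presentation 9 were lower and 1 was higher (median -3.6). Cd74, the invariant chain, was at 59.2 and 1453, a lower to large ratio of 24.5 (21.9 to 27.5). H2-Aa, H2-Ab1 and H2-Eb1, chains of the presenting molecules, were at 30.1 and 615, 25.6 and 519, and 6.34 and 202. Their regulator Ciita was at 0.769 and 18. The chains and the regulator thus differed by similar factors, of 20.3 to 31.8. Ctss, cathepsin S, was the higher member at 233 and 115. Cd79b, a B cell marker, was at 2.72 in the lower library and listed at 0 in the large one, and Itgax, a dendritic cell marker, was at 0.228 and 4.21. The T cell markers Gzma, Gzmb and Cd3g were at 3.09 and 334, 2.17 and 141, and 2.68 and 29.4. Summed levels of macrophage and dendritic cell markers were 4.31 and 35.4 FPKM, with 6 of 7 measured lower. The part of these cells in the class II values was not tested.

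**Figure D4:**
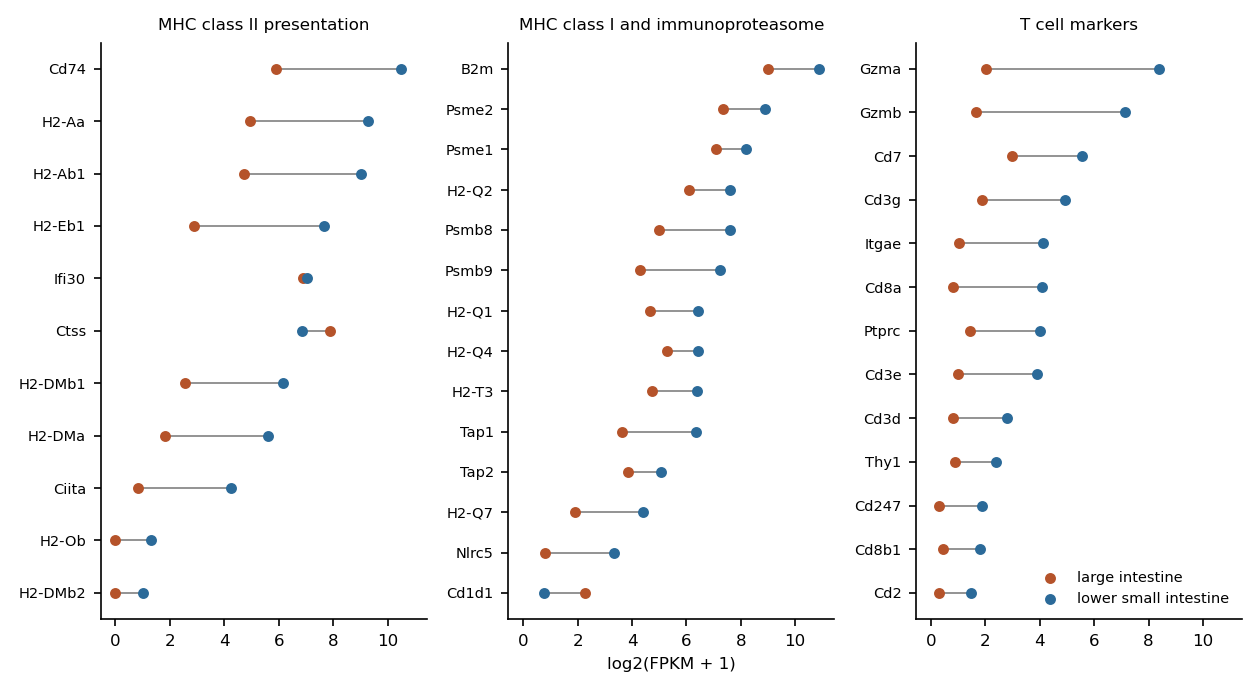
log2(FPKM + 1) in the large intestine (orange) and the lower small intestine (blue), 1 library a region, for the measured MHC class II genes, the 14 MHC class I and immunoproteasome genes of largest difference and the measured T cell markers. Blue lies to the right of orange for all but Ctss and Cd1d1, in the T cell markers as well as in both MHC panels.

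Class I genes were lower too, in 14 of 24 cases with 1 higher (median -1.11), and with equal sums in 10 (median -0.84). B2m, the light chain, was at 516 and 1898. The immunoproteasome subunits Psmb8 and Psmb9 were at 31 and 194 and at 18.6 and 152, and the peptide pump Tap1 at 11.3 and 79.7. The heavy chains H2-K1 and H2-D1, at 404 and 761 and at 301 and 554, stayed under the rule. Peptide-processing genes thus differed more than the classical heavy chains did. Of 43 interferon-stimulated genes 27 were lower and none was higher (median -1.31), among them Zbp1, a sensor of nucleic acids, at 13.2 and 70.9, and Igtp, an immunity-related GTPase, at 8.65 and 61.9. Ido1, which degrades tryptophan, was at 0.924 and 36. Lymphocytes also express many class I and interferon-stimulated genes, and all 13 T cell markers were lower. The part of these cells in the class I and interferon values was not tested.

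Of 21 chemokines and epithelial cytokines 12 were lower and none was higher (median -1.08). Ccl25, which draws CCR9-bearing T cells to the small bowel, was at 6.13 and 411 (chromosome 8, 4325210 to 4360020, plus strand), a lower to large ratio of 67.1 (42.8 to 112). Ccl5, a product of T cells as well as epithelium, was at 7.43 and 273. Ccl28, which draws IgA plasma cells to mucosae, was under the rule at 36.7 and 23.5. Butyrophilin-like genes, which select intraepithelial T cells, were lower in 3 of 6 cases, with Btnl1 at 35.5 and 99.1 and Btnl6 at 87.3 and 236.

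Pattern recognition and inflammasome genes were the immune list that leaned the other way, with 11 of 31 higher and 4 lower (median 0.29). Gsdmc2, Gsdmc3 and Gsdmc4, gasdermins that form membrane pores, were at 283 and 52.2, 135 and 19.4, and 372 and 49.8. Aim2, a sensor of DNA, was at 28.6 and 5.38. Il1b, a cytokine that inflammasomes release, was lower at 0.682 and 9.61.

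The shared machinery of the cell lay close to 0 by comparison. Of 79 cytosolic ribosomal protein genes 1 was higher and 2 were lower (median 0.01, or 0.29 with equal sums), and of 52 respiratory chain genes 1 was higher and none lower (median 0.19). None of 31 proteasome genes was called, yet 30 of 31 lay below 0 (median -0.5, or -0.23 with equal sums). Genes of folding and stress in the endoplasmic reticulum were lower in 10 of 31 cases and higher in 1 (median -0.49). With equal sums 5 of the 31 were lower. Hspa5, the main chaperone there, was at 177 and 420.2, and Hyou1, a partner chaperone, at 21.4 and 51.5. Ern2, the stress sensor of goblet cells, was the higher member at 54.6 and 16.4. Protein-folding genes and the goblet sensor thus differed in opposite directions.

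Families formed from gene symbols alone, without regard to function, gave a scan that did not rest on these lists. Of 326 families with 6 or more measured members, 13 had at least 60% of members called in one direction. Hoxb (10 of 10), Hoxa (10 of 11), Gstm (6 of 7) and Ces (7 of 10, with 2 lower) were higher. Defa (11 of 11), Apol (7 of 8), Reg (5 of 6), Gimap (6 of 8), Gbp (5 of 7), Mcm (7 of 10), Clca (4 of 6), Cxcl (4 of 6) and Ifi (5 of 8) were lower. With equal sums Gbp (4 of 7), Cxcl (3 of 6) and Ifi (4 of 8) came under 60%, as did Gbp and Cxcl with equal upper quartiles. A measured member listed at 0 in one library is called by the rule itself, as for Hoxa6 to Hoxa13, Defa17 and Defa26. Alpha-defensin genes are near-identical, so reads may be shared among them. Apol genes encode apolipoprotein L proteins, such as Apol7a at 3.62 and 30.6 and Apol9a at 1.12 and 14.1, while Apol6 was higher at 2.49 and 0.38. Gimap genes encode GTPases of lymphocytes, such as Gimap4 at 2.40 and 20.2, and the part of such cells in their values was not tested.

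Some called genes stood beside each other on the chromosome. Among 11833 genes placed on the annotation (GENCODE M21, GRCm38) there were 81 runs of 3 or more neighbouring measured genes called in one direction, 38 higher and 43 lower. They held 324 genes, 13.8% of the placed called genes. The longest run was of 14 lower genes on chromosome 8 from 21025545 to 22060305, the alpha-defensin cluster, which ended with Atp7b, a copper pump that is no defensin. A run of 13 lower genes on chromosome 17, from 34119541 to 34386028, joined class II genes, Psmb8, Psmb9, Tap1, Tap2, Btnl1 and Btnl2. Runs of 12 higher genes covered the Hoxb cluster with Ttll6 and Gm53 on chromosome 11 (96133786 to 96354012) and the Hoxa cluster with Hottip on chromosome 6 (52169062 to 52267603). Gm53, beside Hoxb13, was at 68.5 and 3.7. Some shorter runs were made of relatives, such as 7 lower Apol genes on chromosome 15 and 6 higher Gstm genes on chromosome 3. Runs of 5 higher genes each were of the Akr1c, Cyp2d, Cyp2c and S100a groups, the Akr1c run counting the pseudogene Marcksl1-ps4. Others joined genes of different families. Examples were Mipol1, Foxa1, Sstr1 and Clec14a on chromosome 12, all higher, and Me2, Mro, Mapk4 and Ska1 on chromosome 18, all lower. Most called genes nevertheless stood outside such runs.

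Close relatives could also part. Among 525 pairs of neighbouring measured genes of one symbol family within 200 kb, 135 were called in the same direction and 19 in opposite directions. In 8 of the 19 both genes reached 10 FPKM. Adh1 and Adh6a, alcohol dehydrogenase genes 22.6 kb apart on chromosome 3, were at 775 and 16.9 and at 0.481 and 58. Guca2a and Guca2b lie 17.1 kb apart on chromosome 4, and Car13 and Car1 103 kb apart on chromosome 3, with Car13 lower at 15.5 and 35.6. In the carboxylesterase cluster of chromosome 8 Ces2e was lower at 103 and 236 between Ces2c and Ces2g, which were higher at 67.7 and 23.2 and at 11 and 2. Neighbourhood in a cluster therefore did not fix the direction. This search was made after the values of single pairs had been seen.

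**Figure D5:**
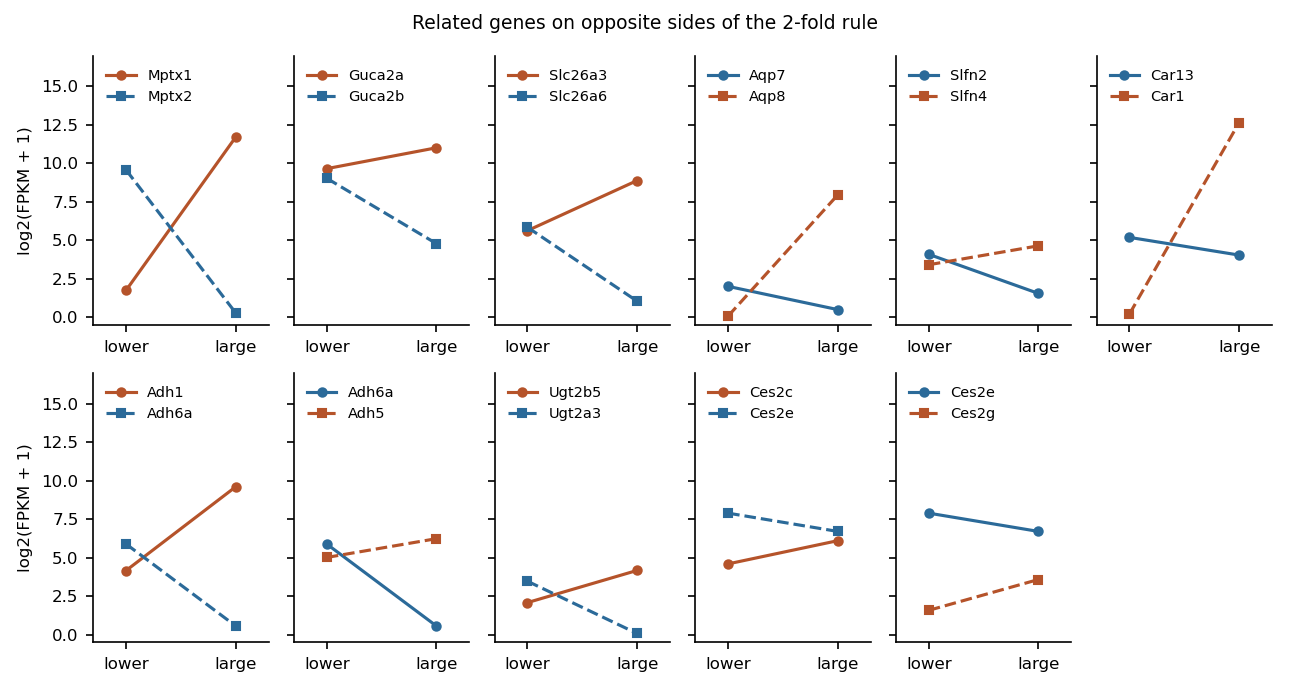
log2(FPKM + 1) in the lower small and the large intestine, 1 library a region, for 11 pairs of related genes on opposite sides of the 2-fold rule, with orange lines for the gene higher and blue lines for the gene lower in the large intestine. The lines cross in 8 of the 11 panels, and stay apart for Guca2a with Guca2b and for both pairs with Ces2e.

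The clearest exchange was between the pentraxin genes Mptx1 and Mptx2 on chromosome 1. Mptx1 was at 3341 and 2.40 and Mptx2 (173274382 to 173277777, minus strand) at 0.224 and 759, with 736 in the upper small intestine. Each of these 2 libraries thus held one of them almost alone. Of 19 preset pairs of relatives with both names in the files, 4 were called in opposite directions: this pair, Guca2a with Guca2b, Slc26a3 with Slc26a6 and Aqp8 with Aqp7. The pairs were drawn up with earlier results of these data known, so this count is no rate for relatives in general. The 120 bases before the start of both pentraxin genes are shown because they are related in sequence despite the opposite levels. Capitals mark their longest shared run, of 21 bases, and sequence is 5′ to 3′ on the strand of the gene (RefSeq, GRCm38.p6).
Mptx1 (chr1:174330398-174330517, plus strand): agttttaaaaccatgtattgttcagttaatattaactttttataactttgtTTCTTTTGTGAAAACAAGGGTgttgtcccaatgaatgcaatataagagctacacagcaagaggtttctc
Mptx2 (chr1:173277757-173277876, minus strand): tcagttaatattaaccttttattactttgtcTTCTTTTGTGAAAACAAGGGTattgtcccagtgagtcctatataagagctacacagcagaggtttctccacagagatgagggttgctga

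The shared run ends 48 bases before the start of Mptx1 and 68 before that of Mptx2.

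At the threshold the calls turn on very small differences. Just inside it were Adcy6, an adenylyl cyclase, at 100.5 and 49.7 (difference 1) and Exosc6, an exosome subunit, at 17 and 7.97. Just outside were Fosb, an immediate early factor, at 165 and 82 and Clca1, the goblet cell metalloprotease, at 825 and 415 (difference 0.99). On the lower side Kif20a, a mitotic kinesin at 5.41 and 11.8, was just inside, and Pmp22, a membrane protein at 127 and 254, just outside.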

How the data were processed

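RNA was sequenced from epithelial cells shaken off opened mouse intestine in EDTA, with a TruSeq stranded mRNA kit, per the labels' protocols. The authors deposited 1 value per gene name and library, taken here as FPKM because the submitters' processing notes name Cufflinks 2.2.1 as the only quantifier, beside TopHat2 2.0.13, Bowtie2 2.2.3, SAMtools 0.1.19 and build mm10. For annotation, strand setting and any scaling between libraries the sources used here give nothing. A gene whose name overlaps another, or has a near-identical copy, can share its reads.

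Differences were taken on the log2(FPKM + 1) scale, which understates those of low genes, with pandas 2.3.3 and scipy 1.17.1. With 1 library a region no p-value or SD was computed, and calls are by size. Steps in low values implied reads, and 68.9% and 67.0% of the 437 and 467 genes used lay within 0.15 read of a whole number in the large and lower library, which was too few for a test on counts. Intervals come from these implied reads over the shortest transcript. GENCODE M21 matched 11833 of the 12287 measured names, and simulated data with known differences were used to check the scripts. Members, lists, families and rules were chosen with earlier results of these data known.

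The rule named up to 8 members of largest difference per list and, among genes at 10 FPKM or more, the 25 furthest apart in each direction. It also named the 15 furthest apart in FPKM in each direction, both members of each preset pair, and up to 8 members of each family past 60%. Members of the 10 longest runs and the 5 genes on each side of the threshold completed it. Outside it, and named after their values were seen, are Cyp2d13, Lpo, Alpi, Slc3a1, Ptpn22, Slc5a1, Khk, Pck1, Naaladl1, Slc15a1, Slc36a1, Apob, Plin2, Scarb1, Slc10a2, Nr1h4, Cftr, Zg16, Fcgbp, St3gal4, Nupr1, Kit, Hoxa2, Plk1, Ctss, Cd1d1, H2-K1, H2-D1, Ccl28, Car13 and Ces2e.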

Additional observations from a re-analysis of the deposited data

Results flagged for a closer look

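Names of short RNA classes, which the comparison set aside, also differed in size between the libraries. Of 1277 such names 89 reached 1 FPKM in the large or the lower library, and 70 of the 89 passed the 2-fold rule, 35 higher and 35 lower in the large intestine. All 1277 names together held 4.90% of the summed FPKM of the large and 7.01% of that of the lower library.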

How the results depend on the processing

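The numbers of genes called were 1172 higher and 1263 lower. They became 577 and 647 with a pseudocount of 5, and 369 and 438 (45.72% higher) with a threshold of 2 log2 units. Under the other alternatives they stayed within 1.5 times. Higher genes were 62.64% of the called with equal sums and 51.82% with equal upper quartiles, against 48.13% as deposited. Of the list medians past the 2-fold rule 1 turned its sign, that of smooth muscle markers, from 1.31 in 1 measured gene to -0.07 without a filter, which adds members near 0. Medians near 0 turned sign too: with equal sums those of the guanylin, redox, sterol synthesis, regional factor and hormone lists, with equal upper quartiles those of the redox and sterol synthesis lists, and P450 genes with a filter of 5 FPKM (-0.3) and without a filter (-0.08). With a pseudocount of 5, which shrinks low genes, 12 list medians and 6 family medians dropped under the 2-fold rule, and with equal sums 5 and 1 did. No named gene called changed its side of 0, and at a difference of 1 or more none of these settings could bring that about. No paired analysis was possible because there is 1 library a group, and no library could be left out. Depth limits genes of a few FPKM: of 2119 called genes with an interval, 2054 had one clear of 1, and so had 2978 of 9460 genes not called.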
